A study of Mus musculus with 12 samples.

Results

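A set of 10 genes of the endoplasmic reticulum (ER) stress response was followed through RNA sequencing libraries of mouse bone marrow: Hspa5, Hsp90b1, Xbp1, Atf4, Atf6, Ern1, Ddit3, Trib3, Herpud1 and Dnajb9. They are a named list of unfolded protein response genes, chosen by function, and all 10 were found among the 28987 genes of the table. The 12 libraries form 6 groups of 2, all from C57BL/6 mice. Cells labelled HSCPs, purified through the surface receptor CD117 (the product of Kit), were taken from marrow of 4 genotypes (wild type, with either mutation alone, named CBL mutant and RUNX1 mutant, and with both, CBL/RUNX1 mutant), and Ly6G+ myeloid cells, a mature population, came from wild type and CBL/RUNX1 mutant marrow. The CBL protein attaches ubiquitin to activated growth factor receptors and so limits their signal, whereas RUNX1 regulates transcription during the formation of blood cells. Per the labels' protocols the marrow came from individual mice and the mutant clone was sorted by FACS. How wild type HSCPs were sorted, how the mutations were introduced, which alleles they are and the age of the mice are not given in the sources used here, so a difference in sorting and an effect of a mutation cannot be told apart. Nothing states that the replicates of a group are separate mice, so p-values measure the spread between these libraries.

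Proteins bound for the cell surface or for secretion fold in the ER, and unfolded protein there sets off the unfolded protein response. Its sensors are IRE1alpha (encoded by Ern1), ATF6 (Atf6) and the kinase PERK (Eif2ak3). IRE1alpha splices the Xbp1 mRNA into the form that encodes an active transcription factor, ATF6 is cut in the Golgi to release another, and PERK slows translation while that of ATF4 goes on. The targets of XBP1 and ATF6 include chaperones and degradation factors of the ER, and those of ATF4 include amino acid synthesis genes, Ddit3 (which encodes CHOP) and Trib3. In marrow, plasma cells, which secrete immunoglobulin, use the XBP1 arm heavily, and granulocyte precursors load their granules through the ER.

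The promoters of 4 members are shown because they hold the published ER stress elements or, for Dnajb9, belong to the member that moved apart from the chaperone Hspa5 below. Each is the 250 bases before the RefSeq transcript start in GRCm38.p6, and 9 of the 10 members have an entry in that table. Capitals mark matches, on either strand, to the ER stress response element (ERSE: CCAAT, 9 bases of any kind, CCACG), its compact form ERSE-II (ATTGG, 1 base of any kind, CCACG), the core TGACGTG of the unfolded protein response element (UPRE) and the composite C/EBP-ATF element TGATGCAA (CARE). ERSE and ERSE-II share the letters CCACG, but no matches overlap in these windows.
Hspa5, chr2:34771840-34772089, plus strand: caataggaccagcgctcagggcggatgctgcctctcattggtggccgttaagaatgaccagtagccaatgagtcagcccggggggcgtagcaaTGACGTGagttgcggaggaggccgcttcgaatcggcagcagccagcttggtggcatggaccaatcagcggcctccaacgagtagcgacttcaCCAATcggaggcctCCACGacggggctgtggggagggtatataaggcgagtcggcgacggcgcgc
Hsp90b1, chr10:86705445-86705694, minus strand: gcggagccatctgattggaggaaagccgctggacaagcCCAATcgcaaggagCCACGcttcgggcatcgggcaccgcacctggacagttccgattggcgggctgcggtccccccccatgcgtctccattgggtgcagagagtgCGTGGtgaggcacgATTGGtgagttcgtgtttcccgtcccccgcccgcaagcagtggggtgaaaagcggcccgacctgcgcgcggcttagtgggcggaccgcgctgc
Herpud1, chr8:94386179-94386428, plus strand: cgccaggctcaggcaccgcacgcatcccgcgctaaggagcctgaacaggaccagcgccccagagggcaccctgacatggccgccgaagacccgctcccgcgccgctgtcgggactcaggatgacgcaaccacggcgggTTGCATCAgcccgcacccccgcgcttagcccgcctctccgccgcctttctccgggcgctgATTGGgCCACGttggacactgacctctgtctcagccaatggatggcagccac
Dnajb9, chr12:44210069-44210318, minus strand: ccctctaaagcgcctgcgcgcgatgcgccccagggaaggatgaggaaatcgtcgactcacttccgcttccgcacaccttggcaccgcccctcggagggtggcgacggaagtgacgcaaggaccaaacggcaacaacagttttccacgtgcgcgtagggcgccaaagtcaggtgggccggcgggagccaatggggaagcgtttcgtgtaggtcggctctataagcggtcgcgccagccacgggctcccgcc

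Hspa5 had an ERSE 65 to 47 bases before the start and a UPRE core 157 to 151 bases before it. Hsp90b1 had 2 ERSE, at 212 to 194 bases on the strand of the gene and at 107 to 89 bases on the opposite one. Herpud1 had an ERSE-II at 52 to 42 bases and a CARE, read on the other strand as TTGCATCA, at 112 to 105 bases. Of all 32851 promoters of this length, 0.113% held an ERSE, 0.0304% an ERSE-II, 1.65% a UPRE core and 0.792% a CARE. These letters were not found in the windows of Xbp1, Atf4, Ern1, Ddit3, Trib3 and Dnajb9. The Dnajb9 window lies wholly inside the gene span given below, and those of Hspa5, Hsp90b1, Ern1 and Ddit3 in part. These spans come from another annotation, and bases before the Dnajb9 span were not searched. Among 58 other genes of the pathway with an entry, 8 held an ERSE (Calr, Canx, Creld2, Derl3, Dnajc3, Ero1b, Pdia6 and Syvn1), 5 a CARE (Atf3, Chac1, Nupr1, Slc7a11 and Vldlr), 3 a UPRE core (Sec24d, Ube2j1 and Vcp) and 0 an ERSE-II.

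Levels are deposited TPM values, a gene's length-corrected share of a library, and their read depth is unknown. Together the members took 0.0536% to 0.130% of a library's TPM. Tests used log2(TPM + 1) after the libraries were scaled by a trimmed mean of the log ratios between them. A log2 fold change thus says how a gene moved relative to the typical gene, and the pseudocount of 1 understates changes of low genes. A gene is called at an adjusted p under 0.05 (limma, Benjamini-Hochberg over all genes tested). Some libraries stood apart from their labels or partners. S100a8 and S100a9, the calprotectin genes of neutrophils, took 28.9% and 31.4% of the TPM of wild type HSCPs, close to the 34.5% and 33.5% of wild type Ly6G+ cells, but 8.11% and 9.54% in CBL/RUNX1 mutant HSCPs. Kit was at 25.6 and 24.5 TPM in wild type HSCPs and at 8.93 and 13.3 TPM in wild type Ly6G+ cells, and Ly6g at 482 and 504 TPM against 2017 and 2026 TPM. The first RUNX1 mutant library (Kit 229.5 TPM, Ly6g 26.2 TPM) differed from the second (26.2 and 384 TPM), and the first CBL/RUNX1 mutant Ly6G+ library (Cd34 195 TPM, Ly6g 388.5 TPM) from the second (40.9 and 1448 TPM). Cbl was at 73.7 to 143.5 TPM in the libraries with the CBL mutation and at 17.9 to 45.0 TPM in the others, and Runx1 at 45.3 to 257 TPM with the RUNX1 mutation and at 8.77 to 16.4 TPM without it.

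**Figure D1:**
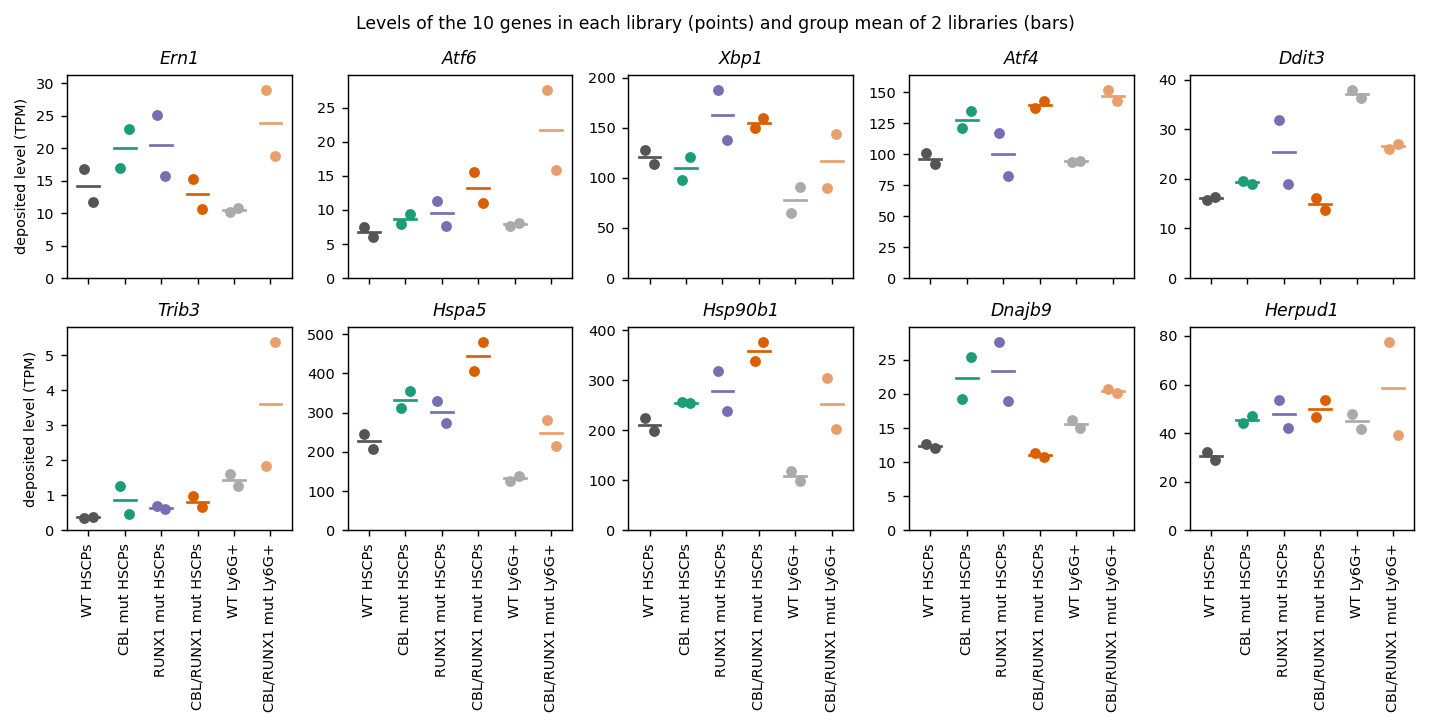
Deposited level (TPM, linear axes from 0) of each gene in the 12 libraries; points are libraries, bars the mean of the 2 libraries of a group. Hspa5 and Hsp90b1 are highest in CBL/RUNX1 mutant HSCPs and lowest in wild type Ly6G+ cells, whereas Dnajb9 is lowest in CBL/RUNX1 mutant HSCPs (11.3 and 10.7 TPM).

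Among the sensors, Ern1 (ENSMUSG00000020715, chromosome 11, 106394650 to 106487852, minus strand) was at 16.7 and 11.7 TPM in wild type, 16.9 and 23.0 in CBL mutant, 25.2 and 15.7 in RUNX1 mutant and 15.2 and 10.6 in CBL/RUNX1 mutant HSCPs, and at 10.2 and 10.8 TPM in wild type and 29.0 and 18.8 in CBL/RUNX1 mutant Ly6G+ cells. On deposited TPM the mutant Ly6G+ libraries had the highest group mean and the wild type Ly6G+ libraries the lowest. Between neighbouring groups in this order of means, only CBL mutant and wild type HSCPs did not overlap. On scaled TPM they did overlap (16.6 and 22.4 against 20.1 and 16.5 TPM), and the CBL/RUNX1 mutant HSCPs were lowest (12.15 and 9.32 TPM). Atf6 (ENSMUSG00000026663, chromosome 1, 170704674 to 170867771, minus strand) was at 7.53 and 6.08 TPM in wild type, 7.93 and 9.37 in CBL mutant, 11.3 and 7.68 in RUNX1 mutant and 15.6 and 10.99 in CBL/RUNX1 mutant HSCPs, and at 7.69 and 8.13 TPM in wild type and 27.7 and 15.8 in CBL/RUNX1 mutant Ly6G+ cells. By group mean it was below Ern1 and Eif2ak3 in every group except the 2 CBL/RUNX1 mutant ones. Its CBL/RUNX1 mutant libraries lay above the wild type ones in both populations.

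Xbp1 (ENSMUSG00000020484, chromosome 11, 5520659 to 5525893, plus strand), the transcription factor gene that IRE1alpha splices, was at 128 and 113 TPM in wild type, 98.2 and 121 in CBL mutant, 188 and 138 in RUNX1 mutant and 150.1 and 159.7 in CBL/RUNX1 mutant HSCPs, and at 65.1 and 91.1 TPM in wild type and 90.4 and 144 in CBL/RUNX1 mutant Ly6G+ cells. The values are of the gene, so its spliced and unspliced forms are not separated. Atf4 (ENSMUSG00000042406, chromosome 15, 80255184 to 80257541, plus strand), the activator translated when PERK is active, was at 100.8 and 92.4 TPM in wild type, 121 and 135 in CBL mutant, 117 and 82.7 in RUNX1 mutant and 137.5 and 143 in CBL/RUNX1 mutant HSCPs, and at 93.9 and 94.8 TPM in wild type and 152 and 143 in CBL/RUNX1 mutant Ly6G+ cells. As a share of TPM, Atf4 mRNA overlapped between the wild type populations and lay above them in both CBL/RUNX1 mutant ones. Ddit3 (ENSMUSG00000025408, chromosome 10, 127290774 to 127296288, plus strand) encodes CHOP, a factor known for promoting cell death under lasting ER stress. In wild type HSCPs it stood at 15.8 and 16.3 TPM, with 19.5 and 19.05 in CBL mutant, 31.7 and 18.9 in RUNX1 mutant and 16.2 and 13.7 in CBL/RUNX1 mutant HSCPs, and Ly6G+ cells had 38.0 and 36.4 TPM when wild type and 25.98 and 27.05 TPM when mutant. Wild type Ly6G+ cells were highest and did not overlap with the next group in the order of means, their CBL/RUNX1 mutant counterpart. Trib3 (ENSMUSG00000032715, chromosome 2, 152337422 to 152344032, minus strand), a pseudokinase gene downstream of ATF4 and CHOP, was the lowest member. It was at 0.344 and 0.39 TPM in wild type, 1.26 and 0.465 in CBL mutant, 0.685 and 0.609 in RUNX1 mutant and 0.967 and 0.667 in CBL/RUNX1 mutant HSCPs, and at 1.61 and 1.27 TPM in wild type and 1.84 and 5.38 TPM in CBL/RUNX1 mutant Ly6G+ cells. A single HSCP library, the first CBL mutant one, reached 1 TPM, so Trib3 was not tested among HSCPs and 9 of 10 members were.

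Hspa5 (ENSMUSG00000026864, chromosome 2, 34771970 to 34777547, plus strand) encodes BiP, the ER chaperone that also holds the sensors inactive. It was at 246 and 207 TPM in wild type, 312 and 355 in CBL mutant, 331 and 274 in RUNX1 mutant and 407 and 481 in CBL/RUNX1 mutant HSCPs, and at 126 and 139 TPM in wild type and 281 and 216 in CBL/RUNX1 mutant Ly6G+ cells. Hsp90b1 (ENSMUSG00000020048, chromosome 10, 86690209 to 86705509, minus strand), which encodes the ER chaperone GRP94, was at 225 and 198 TPM in wild type, 257 and 254 in CBL mutant, 318 and 238 in RUNX1 mutant and 339 and 377 in CBL/RUNX1 mutant HSCPs, and at 119 and 99.4 TPM in wild type and 304 and 202 in CBL/RUNX1 mutant Ly6G+ cells. On deposited TPM the CBL/RUNX1 mutant HSCPs lay above every other library for both chaperones. The wild type Ly6G+ cells lay below every other library, and the groups between them overlapped in part. On scaled TPM the CBL/RUNX1 mutant HSCPs overlapped with other HSCPs. Scaled Hspa5 was 325.1 and 423.1 TPM in them against 306.8 and 345.6 TPM in CBL mutant HSCPs. Scaled Hsp90b1 was 270.7 and 331.7 TPM against 270.6 and 279.2 TPM in wild type HSCPs. Dnajb9 (ENSMUSG00000014905, chromosome 12, 44205559 to 44210326, minus strand) encodes ERdj4, a BiP co-chaperone that restrains IRE1alpha and is a classical XBP1 target. It was at 12.7 and 12.02 TPM in wild type, 19.3 and 25.4 in CBL mutant, 27.7 and 19.0 in RUNX1 mutant and 11.3 and 10.7 in CBL/RUNX1 mutant HSCPs, and at 16.2 and 15.1 TPM in wild type and 20.7 and 20.1 in CBL/RUNX1 mutant Ly6G+ cells. The CBL/RUNX1 mutant HSCPs were the lowest group, below wild type without overlap, and the single mutants had the highest means, overlapping with mutant Ly6G+ cells. Herpud1 (ENSMUSG00000031770, chromosome 8, 94386438 to 94395377, plus strand), which encodes a scaffold of ER-associated degradation (ERAD), was at 32.2 and 28.9 TPM in wild type, 44.2 and 47.0 in CBL mutant, 53.7 and 41.9 in RUNX1 mutant and 46.4 and 53.8 in CBL/RUNX1 mutant HSCPs, and at 48.0 and 41.6 TPM in wild type and 77.6 and 39.4 in CBL/RUNX1 mutant Ly6G+ cells. On deposited TPM wild type HSCPs were lowest and did not overlap with any other group. On scaled TPM they did overlap, with 38.8 and 40.7 TPM against 37.1 and 47.3 TPM in CBL/RUNX1 mutant HSCPs.

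Between the wild type populations, the chaperones fell and the CHOP gene rose from HSCPs to Ly6G+ cells. Ly6G+ cells had less Hsp90b1 (log2 fold change -1.001 ± 0.17 SE, limma adjusted p = 0.00283) and less Hspa5 (-0.81 ± 0.20, limma adjusted p = 0.0123), and more Ddit3 (1.13 ± 0.22, limma adjusted p = 0.00512) and Herpud1 (0.49 ± 0.17, limma adjusted p = 0.0481). So 2 of 10 members were called higher and 2 lower, beside 39.1% of all 13155 genes called in this comparison, and the share of members is near that background. The median over the 10 members was 0.04 against -0.08 over all genes. Xbp1 (-0.69), Ern1 (-0.43), Atf4 (-0.08), Atf6 (0.16), Dnajb9 (0.28) and Trib3 (0.92) did not pass. In bulk RNA, fewer cells of a type and less of an RNA per cell cannot be told apart. Summed markers of plasma cells (12 genes, of which 8 were highest in wild type HSCPs) were 39960 and 41550 TPM in wild type HSCPs and 10650 and 9593 TPM in wild type Ly6G+ cells. The immunoglobulin gene Igkc alone gave 38640 and 40300 TPM of the former and 10210 and 9231 TPM of the latter. These sums thus mostly follow a single gene. Summed markers of granulocyte precursors (5 of 6 genes in the table) were 8100 and 7672 against 582 and 601 TPM. The part of either set in these differences was not tested. Hsp90b1 and Ddit3 remained called when any 1 of the 12 libraries was left out, whereas Hspa5 was lost without either wild type library of either population (adjusted p of 0.0508 to 0.0811). Herpud1 was lost without any of those 4, either CBL mutant library, or the second RUNX1 or CBL/RUNX1 mutant HSCP library (adjusted p of 0.0525 to 0.221), and on unscaled TPM (adjusted p = 0.209).

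The other genes of the pathway, in 5 lists chosen by function, differed by role between the wild type populations. Among 17 ER chaperones and folding enzymes, 14 were called lower in wild type Ly6G+ cells and 0 higher, with a list median of -1.25 against -0.08 over all genes. Manf, a secreted ER-resident factor (-2.44, adjusted p = 0.000322), Sdf2l1, a BiP partner (-2.57, adjusted p = 0.000552), and Pdia6, a disulfide isomerase (-1.74, adjusted p = 0.000557), fell. Of 14 genes for translocation into the ER and transport out of it, 9 were called lower and 0 higher, with a median of -0.84. Among these, Ssr2 (-2.04) and Ssr4 (-1.76) fell, both encoding subunits of the translocon-associated protein complex, and Sec61g, which encodes a channel subunit, fell by 1.75. Of 13 ERAD genes, Selenos (-0.79) and Edem2 (-0.47) were called lower, with a list median of 0.04. Of 7 tested sensor and eIF2alpha kinase genes, Eif2ak3 (PERK) was called higher (1.33), from 8.47 and 7.38 to 24.6 and 19.3 TPM, and Atf6b (-1.23), Mbtps2 (-0.86), which encodes the site-2 protease that cuts ATF6, and Eif2ak4 (-0.97) lower. Of 17 ATF4 and CHOP targets, 5 were called higher and 2 lower, with a median of 0.50. Atf3, an ATF family factor, rose by 2.85, Slc7a11, the cystine carrier, by 2.28 and Cebpg, a partner of ATF4, by 1.09, while Psat1 (-1.20) and Phgdh (-1.74), of serine synthesis, fell. Over the 5 lists 7 of 68 genes were called higher and 30 lower, beside 16.4% of all genes called higher and 22.7% lower. On unscaled TPM they were 8 higher and 19 lower, beside 14.6% and 9.71% of all genes. Leaving out the first or second wild type HSCP library gave 24 or 19 lower, beside 13.4% or 9.94% of all genes, and the first or second wild type Ly6G+ library 20 or 21 lower, beside 13.5% or 10.9%. Of the 8 pathway genes with an ERSE, Calr, Canx, Creld2, Dnajc3 and Pdia6 were among those called lower. Derl3 (-1.60), Ero1b (-0.10) and Syvn1 (0.28) were not called. Of the 5 with a CARE, Atf3 and Slc7a11 were among those called higher, and Chac1 (0.38), Nupr1 (0.69) and Vldlr (-0.10) were not called. Of the 3 with a UPRE core, Sec24d was called lower (-1.54), and Ube2j1 (0.11) and Vcp (-0.26) were not called. With 14 of 17 chaperones and folding enzymes called lower in all, a link to these elements was not tested.

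**Figure D2:**
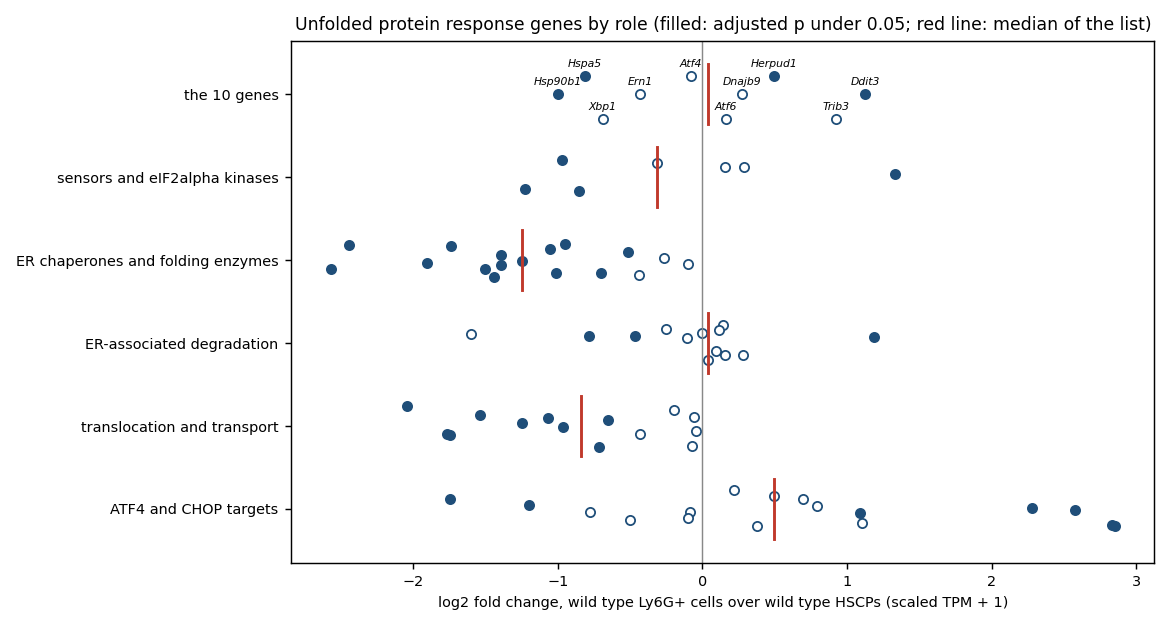
Log2 fold change (scaled TPM + 1) of wild type Ly6G+ cells over wild type HSCPs; each circle is a gene, filled when its adjusted p is under 0.05, with vertical scatter only to separate points and a red line at each list's median. The chaperone and translocation lists lie to the left (medians of -1.25 and -0.84), while the 10 genes have a median of 0.04 and hold called genes on both sides.

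In CBL mutant HSCPs against wild type, no member was called. The 3 members with the smallest p were Xbp1 (log2 fold change -0.55 ± 0.15 SE, limma adjusted p = 0.255), Dnajb9 (0.41 ± 0.15, limma adjusted p = 0.416) and Herpud1 (0.16 ± 0.14, limma adjusted p = 0.672). Of the 9 tested, 2 had an unadjusted p under 0.05, against 10.8% of all genes, and 0.556% of 12421 genes were called. The member median was -0.01 against -0.02 over all genes, or 0.40 against 0.33 on unscaled TPM. The pathway lists had 0 of 66 genes called and 8 with an unadjusted p under 0.05. Their smallest p values belonged to Atf6b (-0.54), Creld2 (-0.46), Derl2 (-0.39), Sec62 (-0.27) and Ddit4 (1.77), none of them called. Without the first or second RUNX1 mutant library, 3 pathway genes were called higher, beside 2.84% or 2.85% of all genes, and still no member. Plasma cell markers summed to 350 and 608 TPM here, against 39960 and 41550 TPM in wild type. Of these sums, Igkc gave 258.5 and 525.9 TPM here and 38640 and 40300 TPM in wild type. The part of this difference in the level of Xbp1, a plasma cell factor, was not tested.

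In RUNX1 mutant HSCPs against wild type, no member was called either. Atf4 had the smallest p (-0.52 ± 0.13 SE, limma adjusted p = 0.207), and on unscaled TPM its difference was 0.03. Dnajb9 was at 0.32 ± 0.15 (limma adjusted p = 0.327) and Hsp90b1 at -0.17 ± 0.14 (limma adjusted p = 0.534), the latter 0.38 on unscaled TPM. Of 9 members 1 had an unadjusted p under 0.05, against 16.5% of all genes, and 0.0483% of all genes were called. The member median was -0.08 against -0.03 over all genes, or 0.42 against 0.45 on unscaled TPM. No pathway gene of 66 was called and 9 had an unadjusted p under 0.05. The smallest p of the lists belonged to Mbtps2 (0.29), Ppib (-0.34), Derl2 (-0.31), Sec61g (-0.93) and the asparagine synthetase gene Asns (-1.24). Without the second RUNX1 mutant library, Atf4 was called lower (-0.51, limma adjusted p = 0.0364), as were 11 of 66 pathway genes, with 4 higher. In that setting 15.9% of all genes were called lower and 13.4% higher.

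With both mutations, HSCPs had less Dnajb9 and less Ddit3 than wild type relative to the typical gene. Scaled levels of Dnajb9 were 15.3 and 16.95 TPM in wild type and 9.04 and 9.45 TPM in CBL/RUNX1 mutant HSCPs, a log2 fold change of -0.74 ± 0.15 (SE, limma adjusted p = 0.0331). Scaled Ddit3 was 19.0 and 23.0 TPM against 12.96 and 12.04 TPM, a change of -0.70 ± 0.15 (SE, limma adjusted p = 0.0335). On scaled values the groups did not overlap for either gene, whereas on deposited TPM those of Ddit3 did. Ern1 was at -0.72 ± 0.20 (limma adjusted p = 0.0596), and the other 6 tested members lay between -0.27 (Xbp1) and 0.33 (Hspa5). Thus 2 of 9 members were called lower and 0 higher, beside 6.54% of all genes called lower and 4.56% higher (11.1% in either direction). The member median was -0.10 against 0.02 over all genes.

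This picture depends on the scaling. On unscaled TPM the median over all genes rose from 0.02 to 0.56, and the calls changed to 4 of 9 members higher and 0 lower, beside 31.9% of all genes higher and 3.36% lower. The 4 were Hspa5 (0.97, limma adjusted p = 0.0108), Hsp90b1 (0.76, limma adjusted p = 0.0163), Herpud1 (0.69, limma adjusted p = 0.0243) and Atf6 (0.86, limma adjusted p = 0.0419). Dnajb9 (-0.15) and Ddit3 (-0.10) stayed on the lower side without passing. The S100a8 and S100a9 share and the immunoglobulin share (6.41% and 6.63% in wild type, 0.00834% and 0.00556% in CBL/RUNX1 mutant HSCPs) moved with the genotype, and removing these genes before scaling gave the same 2 lower calls. The scaling trims extreme log ratios in any case, so this removal could hardly change scaled calls. It was not applied to unscaled TPM. Leaving out either wild type, either CBL mutant or either CBL/RUNX1 mutant library ended both calls, and leaving out either RUNX1 mutant library added Ern1. These fits keep 1 library in a group. The share of all genes called fell in the former settings and rose in the latter, so these changes are not particular to the members. Summed granulocyte precursor markers were 8100 and 7672 TPM in wild type and 14470 and 16580 TPM in CBL/RUNX1 mutant HSCPs, stem and progenitor markers 178 and 161.5 against 562 and 420.1 TPM, and plasma cell markers 39960 and 41550 against 89.5 and 76.7 TPM. Of the plasma cell sums, Igkc gave 38640 and 40300 TPM in wild type and 19.9 and 24.9 TPM in the mutant. The part of these markers in the differences was not tested.

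**Figure D3:**
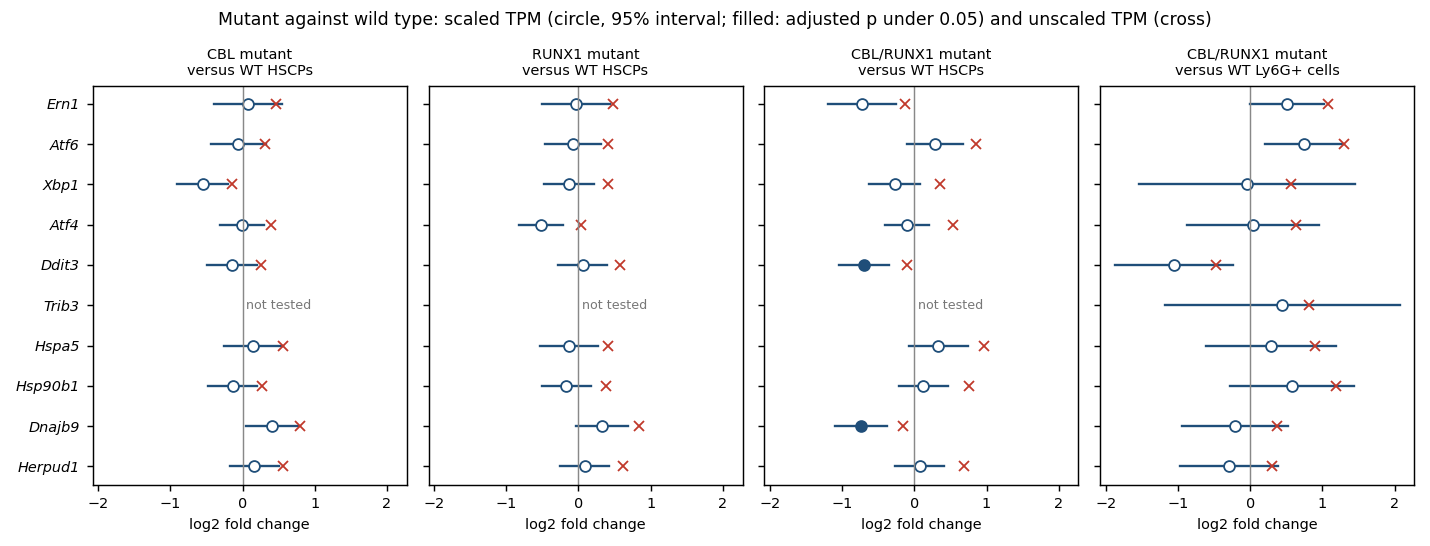
Log2 fold change of each gene in 4 mutant comparisons; circles are scaled TPM + 1 with 95% intervals, filled when the adjusted p is under 0.05, and crosses are unscaled TPM. Crosses lie to the right of circles throughout, and Dnajb9 and Ddit3 in CBL/RUNX1 mutant HSCPs (-0.74 and -0.70) are the filled circles.

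The ratio of 2 genes within a library needs no scaling between libraries, and it was taken after the values were seen, as a description without a test. Dnajb9 was 5.18% and 5.79% of the Hspa5 level in wild type, 6.18% and 7.16% in CBL mutant, 8.36% and 6.94% in RUNX1 mutant and 2.78% and 2.23% in CBL/RUNX1 mutant HSCPs. The CBL/RUNX1 mutant libraries were thus below every other library, since Ly6G+ cells had 12.9% and 10.8% when wild type and 7.37% and 9.33% when mutant. Ddit3 gave 6.44% and 7.87% in wild type, 6.26% and 5.36% in CBL mutant, 9.60% and 6.90% in RUNX1 mutant and 3.99% and 2.85% in CBL/RUNX1 mutant HSCPs. Wild type Ly6G+ cells stood at the other end with 30.1% and 26.1%, and CBL/RUNX1 mutant Ly6G+ cells at 9.24% and 12.5%. Ern1 was 3.74% and 2.20% of Hspa5 in CBL/RUNX1 mutant HSCPs and 5.42% to 7.62% in the other 6 HSCP libraries. Such a ratio shows unequal change of 2 genes, and not which of them changed.

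**Figure D4:**
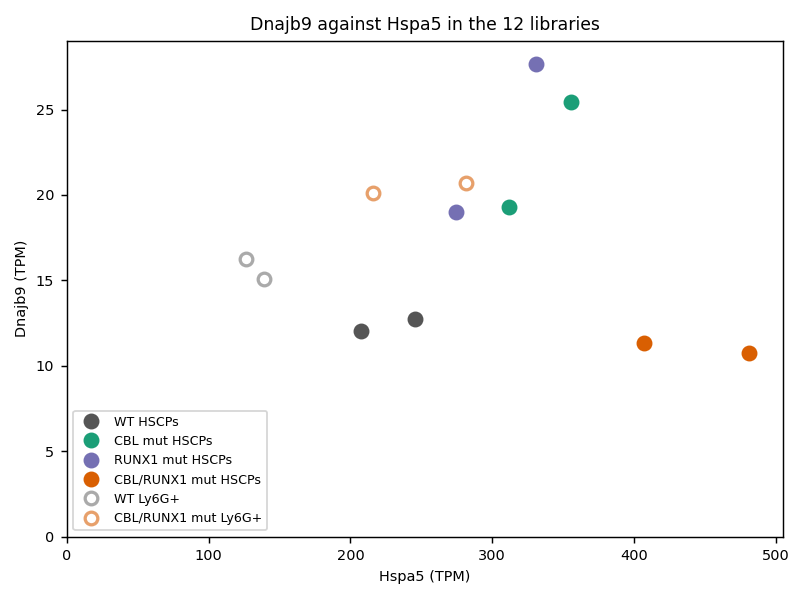
Dnajb9 against Hspa5 (both deposited TPM, linear axes from 0) in the 12 libraries, coloured by group, with open circles for Ly6G+ cells. The CBL/RUNX1 mutant HSCPs combine the highest Hspa5 (407 and 481 TPM) with the lowest Dnajb9 (11.3 and 10.7 TPM).

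Among the pathway lists in CBL/RUNX1 mutant HSCPs against wild type, called genes were found in 1 list. Of 15 tested ATF4 and CHOP targets, the serine synthesis genes Phgdh (log2 fold change 0.92, limma adjusted p = 0.0306) and Psat1 (1.11, limma adjusted p = 0.0488) rose, and Chac1, which encodes a glutathione-degrading enzyme, fell by 1.68 (limma adjusted p = 0.0193), as did the stress gene Sesn2 by 0.79 (limma adjusted p = 0.0464). Phgdh went from 56.3 and 52.6 to 162.5 and 159.6 TPM, and Chac1 from 4.98 and 4.66 to 1.67 and 1.39 TPM. Without scaling Chac1 was at -1.20. The smallest p of the other lists belonged to Eif2ak1 (-0.43), Sil1 (0.68), Derl2 (-0.51) and Sec24d (-0.83), none called. The 2 higher and 2 lower calls among 66 pathway genes stand beside 4.56% and 6.54% of all genes. On unscaled TPM 33 were called higher and 1 lower, beside 31.9% and 3.36% of all genes. Fewer pathway genes were called without a wild type, CBL mutant or CBL/RUNX1 mutant library, and more without a RUNX1 mutant library. The share of all genes called fell and rose in the same fits, which keep 1 library in a group.

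Set against the single mutants, Dnajb9 was the member with the largest difference in CBL/RUNX1 mutant HSCPs. Against CBL mutant HSCPs (scaled 18.96 and 24.7 TPM) it was lower by a log2 fold change of -1.15 ± 0.15 (SE, limma adjusted p = 0.0165), and against RUNX1 mutant HSCPs (scaled 20.7 and 20.1 TPM) by -1.06 ± 0.15 (SE, limma adjusted p = 0.0171). Ddit3 was called lower against RUNX1 mutant HSCPs (-0.76 ± 0.15 SE, limma adjusted p = 0.0307) and was at -0.56 ± 0.15 against CBL mutant HSCPs (limma adjusted p = 0.079). Ern1 was at -0.80 (limma adjusted p = 0.07) and -0.69 (limma adjusted p = 0.0748). The 6 other tested members lay between -0.09 and 0.34 against CBL mutant and between -0.14 and 0.47 against RUNX1 mutant HSCPs. So 1 of 9 members was called lower against CBL mutant HSCPs, beside 2.21% of all genes called lower and 3.67% called in either direction. Against RUNX1 mutant HSCPs 2 of 9 were called lower, beside 3.20% of all genes called lower and 9.09% called in either direction. These comparisons share the CBL/RUNX1 mutant libraries with each other and with the comparison to wild type.

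The calls against the single mutants did not hold under every setting. On unscaled TPM Dnajb9 was at -0.95 (limma adjusted p = 0.063) against CBL mutant and -0.99 (limma adjusted p = 0.0607) against RUNX1 mutant HSCPs, and 0 members were called. Against CBL mutant HSCPs its call was lost without any 1 library of the wild type, CBL mutant or CBL/RUNX1 mutant groups. Without either RUNX1 mutant library, Ern1 and Ddit3 were added as lower. Against RUNX1 mutant HSCPs the Dnajb9 call was lost without either wild type or either CBL/RUNX1 mutant library. That of Ddit3 was also lost without either CBL mutant library. The share of all genes called fell in each setting that lost a call and rose in those that added calls. Among pathway genes, Atf5, an ATF4 target that encodes a transcription factor, was called higher against CBL mutant HSCPs (0.60, limma adjusted p = 0.0462). Calr, the calreticulin gene (0.70), Sec61g (0.85), Ssr2 (0.64) and Phgdh (1.20) were called higher and Chac1 (-1.06) lower against RUNX1 mutant HSCPs. These 1 and 5 of 66 pathway genes stand beside the 3.67% and 9.09% of all genes given above. On unscaled TPM Atf5 (limma adjusted p = 0.077), Calr (limma adjusted p = 0.077), Ssr2 (limma adjusted p = 0.079) and Chac1 (limma adjusted p = 0.082) were no longer called. Sec61g and Phgdh still were, with 3.74% and 3.20% of all genes called in the 2 comparisons. Uncalled genes with the smallest p of their list were Atf6b (0.41), Sil1 (0.60), Sel1l (0.35) and Sec24d (-0.75) against CBL mutant, and Eif2ak4 (0.32) and Selenos (0.57) against RUNX1 mutant HSCPs. Without a wild type, CBL mutant or CBL/RUNX1 mutant library, fewer pathway genes were called in either comparison, and a smaller share of all genes was too. Leaving out the first or second RUNX1 mutant library gave 5 higher and 5 lower against CBL mutant HSCPs in both cases, beside 23.7% or 23.4% of all genes called. Against RUNX1 mutant HSCPs it gave 15 higher and 4 lower or 10 higher and 2 lower, beside 28.9% or 20.2%.

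The non-additive term asks whether the effect of both mutations differs from the sum of the single effects on the log2 scale. Dnajb9 had the largest term (-1.47 ± 0.22 SE, limma adjusted p = 0.0749), followed by Ern1 (-0.77 ± 0.28, limma adjusted p = 0.21) and Ddit3 (-0.61 ± 0.21, limma adjusted p = 0.185). No member passed, 3 of 9 had an unadjusted p under 0.05 against 19.3% of all genes, and 0.0161% of all genes were called. Without the first RUNX1 mutant library Dnajb9 passed (-1.45, limma adjusted p = 0.0137), and without the second both Dnajb9 (-1.49, limma adjusted p = 0.0106) and Ddit3 (-0.73, limma adjusted p = 0.0429) did. None of 66 pathway genes was called, with 18 at an unadjusted p under 0.05. Without the first or second RUNX1 mutant library, 4 or 5 were called higher and 0 or 2 lower, beside 8.90% or 16.0% of all genes called. The smallest p of the lists belonged to Atf6b (0.47), Sdf2l1 (0.87), Vcp (0.39), Sec61g (1.01) and Atf5 (0.66).

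In Ly6G+ cells, CBL/RUNX1 mutant against wild type, no member was called, nor was any gene: 0% of 11744 passed. The members with the smallest p were Atf6 (log2 fold change 0.74 ± 0.20 SE, limma adjusted p = 0.319), Ddit3 (-1.06 ± 0.30, limma adjusted p = 0.326) and Ern1 (0.51 ± 0.19, limma adjusted p = 0.354). Scaled Atf6 was 9.61 and 10.3 TPM in wild type and 18.4 and 16.6 TPM in the mutant, and scaled Ddit3 47.5 and 46.2 against 17.3 and 28.3 TPM, so the groups did not overlap for either. The other 7 members lay between -0.30 (Herpud1) and 0.58 (Hsp90b1), with 95% intervals of -1.54 to 1.46 for Xbp1 and -1.19 to 2.08 for Trib3. Of 10 members 3 had an unadjusted p under 0.05, against 14.1% of all genes, and the member median was 0.16 against 0.04 over all genes, or 0.72 against 0.58 on unscaled TPM. With all 12 libraries in the fit, Atf6 (0.75, limma adjusted p = 0.034) and Ddit3 (-1.05, limma adjusted p = 0.0301) were called, beside 7.76% of all genes. Without the first mutant library 2 of 10 members were called, 1 higher and 1 lower, beside 11.2% of all genes, and without the second 5, 3 higher and 2 lower, beside 61.2%. Ddit3 was among them in both cases (-0.72 with limma adjusted p = 0.0282 and -1.42 with limma adjusted p = 0.00087).

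The 2 mutant Ly6G+ libraries stood apart from each other, with an SD of 0.998 for the log2 difference between replicates over genes, against 0.36 in wild type Ly6G+ cells. Summed markers of mature neutrophils were 85200 and 311400 TPM in them, against 403600 and 397500 TPM in wild type, and stem and progenitor markers 700 and 149 TPM against 85.8 and 84.4 TPM. Their part in the member values was not tested. No pathway gene of 67 was called, and 5 had an unadjusted p under 0.05. The smallest p of the lists belonged to Eif2ak2 (0.53), Pdia6 (0.70), Derl3 (-1.31), Spcs3 (0.46) and Asns (-3.28), measured at 13.95 and 16.8 TPM in wild type cells against 0.363 and 2.39 TPM in mutant ones. Without the first mutant library 4 of 67 pathway genes were called higher and 4 lower, and without the second 14 and 25, which is near the shares of all genes given above for these settings.

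The difference of the CBL/RUNX1 effect between Ly6G+ cells and HSCPs was tested as an interaction over all 12 libraries. Ern1 had the smallest p (1.25 ± 0.27 SE, limma adjusted p = 0.173), with the mutant libraries below wild type in HSCPs and above it in Ly6G+ cells on scaled TPM. Atf6 was at 0.47 ± 0.23 (limma adjusted p = 0.568) and Hsp90b1 at 0.47 ± 0.24 (limma adjusted p = 0.573). No member of 10 was called, 1 had an unadjusted p under 0.05 against 9.75% of all genes, and 0.0684% of all genes were called. Dnajb9, called in HSCPs, had a difference of 0.54 with an interval of -0.12 to 1.20, so a different effect in Ly6G+ cells was not shown. Without the second mutant Ly6G+ library Ern1 was called (1.24, limma adjusted p = 0.0309), as were 3 pathway genes higher and 9 lower, beside 15.6% of all genes. With all libraries 0 of 68 pathway genes were called and 7 had an unadjusted p under 0.05, the smallest of 4 lists belonging to Eif2ak2 (0.69), Pdia4 (0.64), Spcs3 (0.48) and Slc7a11 (-1.65).

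The members varied to different degrees over the 12 libraries. On log2(scaled TPM + 1), the range was widest for Trib3 (2.23), Ddit3 (1.89) and Hspa5 (1.42) and narrowest for Herpud1 (0.68) and Atf4 (0.77). For those 3 widest, the genes with the closest profile were sought by the root mean square distance between centred profiles over the 12 libraries, among 9681 genes. Hspa5 lay closest to Psmc4 (0.0935), which encodes a proteasome ATPase, Adrm1 (0.0957), a proteasome ubiquitin receptor gene, and Nars (0.106), a transfer RNA synthetase gene, against a median distance of 0.51. Ddit3 lay closest to Ccndbp1 (0.118), Fam32a (0.126) and Klc4 (0.135), against a median of 0.74. The same 6 genes came out on unscaled TPM. Trib3 lay closest to Prkx (0.255), Asah1 (0.275) and Cd164 (0.288), against a median of 0.78, and on unscaled TPM to Zdhhc7, Asah1 and Sppl2a.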

How the data were processed

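Gene levels were measured by RNA sequencing in 12 libraries, 2 per group. The authors deposited TPM, although the table is named for counts: per the submitters' processing notes CASAVA 1.8, bcl2fastq and kallisto were used with mm10. How transcripts were joined to genes is not given in the sources used here. Totals ran from 933370 to 981994 TPM, and depth is unknown. Symbols were matched for 27458 of 28987 identifiers.

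TPM were scaled with unweighted trimmed means (trimming 0.3 of log ratios and 0.05 of levels), genes with 1 TPM in 2 libraries of a fit were kept, and log2(TPM + 1) was tested with limma 3.58.1 (R 4.3.3) with trend and robust moderation, group means only. HSCPs (4 residual degrees of freedom), Ly6G+ cells (2) and all 12 libraries (6) were fitted separately. The script was tested on simulated data. The members and lists were chosen with earlier results of these data known. All members are named. In each comparison called members, or the 3 with the smallest p, are given in full, and from each list up to 3 called genes per direction, or the 1 with the smallest p. Some results that this rule would name are not reported here. Alternatives were other scaling, pseudocounts, filters, moderation and weights, a replicate block, other libraries in the fit, removal of abundant genes and leaving out each library. Promoters are RefSeq's. The deposited build is mm10 (GRCm38).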

Additional observations from a re-analysis of the deposited data

How the results depend on the processing

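Without scaling, 4 members were called in CBL/RUNX1 mutant against wild type HSCPs (all higher), beside 35.3% of all genes. Against the CBL and the RUNX1 mutant 0 members were called, beside 3.74% and 3.20% of all genes. Over all 84 tested pairs of a member and a comparison, 18 turned from negative to positive without scaling and 1 from positive to negative. In RUNX1 mutant HSCPs 6 of 9 members did so, among them Atf4 (0.0292) and Hsp90b1 (0.38). Without the filter, the counts were 0 against wild type and 1 against RUNX1 mutant HSCPs, where more genes enter the adjustment. With all 12 libraries in the fit they were 0 and 1, and 2 in Ly6G+ cells. With array weights or with the compared groups alone, 3 members were called against CBL mutant and 0 against RUNX1 mutant HSCPs, and 7 between the wild type populations. With array weights 21.1%, 0.411% and 66.85% of all genes were called in these comparisons. With the compared groups alone the shares were 18.7%, 0% and 72.0%, so the 7 members are near the background. Leaving out each library in turn gave 0 to 3 members called against wild type HSCPs, 0 to 3 against CBL mutant HSCPs, 0 to 2 against RUNX1 mutant HSCPs, 0 to 1 for RUNX1 mutant against wild type, 0 to 2 for the non-additive term, 0 to 5 in mutant Ly6G+ cells, 2 to 6 between the wild type populations and 0 to 1 for the difference between populations. A group left with 1 library was assumed to vary like the others. For the 28 pairs of a member and a comparison that the naming rule chose, 560 values were computed under alternatives. Of these, 476 kept direction and side of the threshold, 59 fell short of it, 23 newly passed and 2 changed sign. Most of the 28 pairs were not called in the main fit, and staying uncalled counts among the 476. Only called pairs could fall short, so the 476 do not measure how well the calls held. Except where stated, the causes were not tested. The labels tie replicate numbers to no shared mouse, and same-numbered libraries had correlations of -0.01 to 0.46 between their deviations. The replicate block gave 2, 1 and 3 members called against wild type, CBL mutant and RUNX1 mutant HSCPs, beside 11.9%, 2.97% and 10.9% of all genes. Between the wild type populations it gave 3 (Herpud1 was lost, limma adjusted p = 0.0539), beside 41.9%. In the other comparisons it gave 0, beside at most 0.370% of all genes. Among pathway genes it gave 0 calls against CBL mutant HSCPs, so that of Atf5 was lost. Against RUNX1 mutant HSCPs it gave 12 higher and 0 lower, beside 7.33% and 3.57% of all genes, so that of Chac1 was lost. Unknown depth leaves the precision of low values, such as Trib3, undetermined.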
